A study of Mus musculus with 12 samples.

Results

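The 34 genes described here make sterols and fatty acids, control that synthesis, or store its products, and they were compared between ARG1+ and ARG1- microglia. They were chosen by name, from the known pathways, with earlier results of these data known, and no measured value enters the rule. All 34 were found among the 55487 genes of the count table, and all 34 passed the filter on low counts, as did 16908 genes in all. By role, 7 belong to the mevalonate arm, 11 to the sterol arm, 5 to SREBP and its regulators, 3 to sterol transport, sterol esters and lipid droplets, and 8 to fatty acid synthesis.

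Microglia were sorted from YARG mice of both sexes on postnatal day 13. In these mice YFP is read from the *Arg1* locus, and every animal of both populations carries the reporter, so YFP-positive cells were collected as ARG1+ and YFP-negative cells as ARG1-. The cells came from brain tissue ventral to the corpus callosum (basal forebrain and striatum) and had first been gated as CX3CR1+ and CD206-. Each library was made from the pooled tissue of several mice of one sex. RNA-seq covered 12 libraries in 4 groups of 3: ARG1- females (libraries 1, 2 and 13 in the labels), ARG1- males (5, 6 and 14), ARG1+ females (7, 8 and 15) and ARG1+ males (11, 12 and 16).

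Total counts ranged from 28356659 to 60625170 per library, and 3 counts, read as the limit of detection, came to at most 0.102 CPM, the unit used here for counts scaled to a common library total. Intervals and this limit cover counting and library spread only, because the reads carried no molecular identifiers. *Arg1* itself had a count in 2 libraries, with 52 counts in ARG1+ female 15 and 2 counts in ARG1+ female 8, and 0 counts in the other 10. In these libraries the grouping therefore rests on the labels and the YFP sort. The study reports that ARG1 and YFP protein coincided in YARG brains. It also reports, by RT-qPCR of cells sorted separately with the same procedure, *Arg1* transcript only in the YFP-positive population. The 8 microglial markers listed were abundant in every library. They summed to 50025 ± 5336 CPM in ARG1- and 40723 ± 4286 CPM in ARG1+ microglia (SD, n = 6). In the test used below 1 was higher (12.5%, beside 6.44% of all genes) and 5 were lower (62.5%, beside 9.42%).

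Cholesterol is built from acetyl-CoA through mevalonate to farnesyl pyrophosphate and squalene, and squalene is then closed into a ring and trimmed to cholesterol. SREBP transcription factors are carried to the Golgi by SCAP when sterols are low, are held back by the INSIG proteins when sterols are high, and switch on synthesis genes. Sterols in excess activate the liver X receptors (LXR), which switch on export and fatty acid synthesis, or are esterified by SOAT1 and kept in droplets coated by PLIN2. Microglia that take up myelin or dying cells are known to handle large amounts of sterol in this way.

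Of the storage genes 2 of 3, and of the fatty acid genes 2 of 8, were higher in ARG1+ microglia, and 2 enzymes of sterol synthesis were lower. At an adjusted p under 0.05, 4 of the 34 genes rose (*Soat1*, *Plin2*, *Fasn* and *Scd2*) and 2 fell (*Mvk* and *Ebp*). These 6 are 17.6% of the 34, beside 15.9% of all genes tested in either direction. By direction, 11.8% rose, beside 6.44% of all genes, and 5.88% fell, beside 9.42% of all genes. The median log2 fold change was -0.07 over the 34 genes and 0.06 over all genes tested. Values are CPM on normalized totals with their SD over 6 libraries, and P values are from the quasi-likelihood test of edgeR with sex as a second term, adjusted over all 16908 genes. Nothing in the labels says that the libraries of a group came from separate cell preparations; the study describes separate litters. Both populations were sorted from pooled tissue, so an ARG1+ and an ARG1- library may come from the same pool. The labels do not pair them, and the test treated all libraries as unpaired. P values therefore measure the spread between these libraries.

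**Figure D1:**
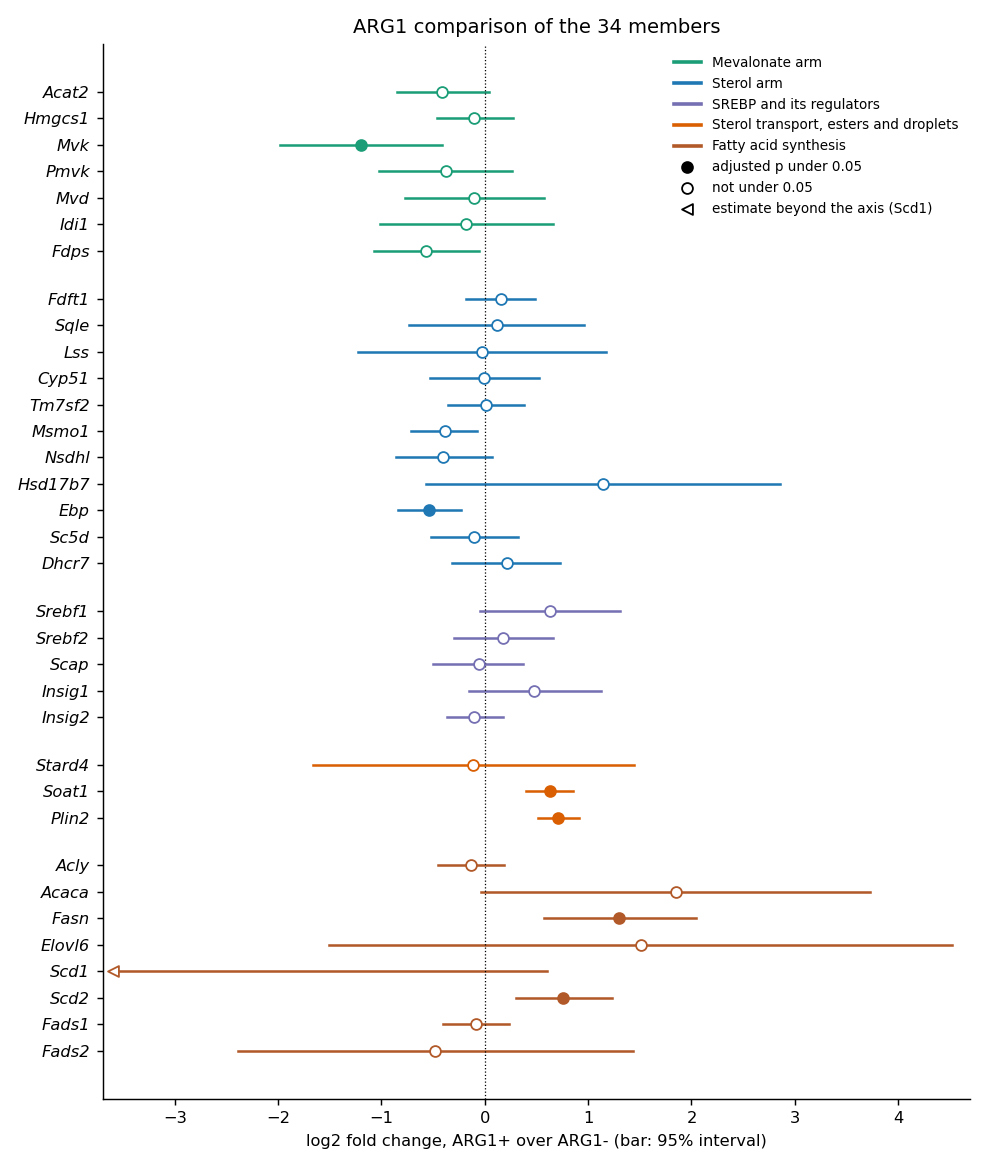
Log2 fold change of each of the 34 genes, ARG1+ over ARG1- microglia, with its 95% interval, on a linear axis and colored by gene group. Filled points are the 6 genes at an adjusted p under 0.05. Soat1 and Plin2 have the shortest intervals among these 6, all 7 genes of the mevalonate arm lie left of 0, and the estimate of Scd1 (-4.17) lies beyond the axis.

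The clearest differences were in *Plin2* and *Soat1*, 2 of the 3 storage genes. Of 13 further genes of triglyceride and droplet metabolism, 0 rose, beside 6.44% of all genes, and 1 fell, beside 9.42%. Their median log2 fold change was 0.13, beside 0.06 over all genes, with 9 fitted above 0 and 4 below. Those 13 summed to 770 ± 49.0 CPM in ARG1- and 775 ± 82.0 CPM in ARG1+ microglia (SD, n = 6). *Plin2* (chromosome 4, 86648386 to 86670060, minus strand, GRCm38) encodes perilipin 2, which coats lipid droplets. Its level ran from 67.9 to 84.8 CPM in ARG1- libraries (median 73.2) and from 112 to 136 CPM in ARG1+ libraries (median 119.5). Every ARG1+ library lay above every ARG1- library. The means were 74.1 ± 6.13 and 121 ± 9.08 CPM (SD, n = 6), a log2 fold change of 0.71 with a standard error of 0.09 and a 95% interval from 0.51 to 0.91 (adjusted p = 0.000676).

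*Soat1* (chromosome 1, 156424525 to 156474331, minus strand) encodes the enzyme of the endoplasmic reticulum that joins cholesterol to a fatty acid. It ran from 78.5 to 111.8 CPM in ARG1- libraries (median 103.7) and from 141 to 162.5 CPM in ARG1+ libraries (median 158). Here too the populations did not overlap, which held for 2 of the 34 genes (5.88%) beside 10% of all genes tested. The means were 99.8 ± 12.4 and 154 ± 9.07 CPM (SD, n = 6), and the log2 fold change was 0.63 with a standard error of 0.10 and an interval from 0.40 to 0.85 (adjusted p = 0.00197). Both genes kept their call in each of the 12 fits that left out 1 library, in which the adjusted p reached at most 0.00381 for *Plin2* and 0.00735 for *Soat1*.

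Long genes were on the whole higher in ARG1+ microglia, and *Soat1* is among them. In 5 equal bins of genes ordered by exon length, the median log2 fold change was -0.09 in the shortest bin and 0.31 in the longest, to which *Soat1* and *Fasn* belong. With each library's trend on exon length and GC content removed, the log2 fold change of *Soat1* was 0.13 (adjusted p = 0.424) and that of *Plin2* 0.44 (0.0245). That correction also shifted the median of all genes from 0.06 to -0.26. With the trend centered in each library, which left that median at 0.02, *Soat1* was at 0.40 (adjusted p = 0.0205) and *Plin2*, of middle length, at 0.73 (adjusted p = 0.000457).

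*Stard4*, the third gene of this group, encodes a carrier that moves sterol between membranes. It was sparse, at 3.61 ± 2.66 CPM in ARG1- and 3.29 ± 1.06 CPM in ARG1+ microglia, and its interval ran from -1.66 to 1.44 (adjusted p = 0.941). Summed over the 3 genes, most of it *Plin2* and *Soat1*, the level was 156.8 to 187.7 CPM in ARG1- and 260.8 to 288.3 CPM in ARG1+ libraries. Fewer cells with a transcript and less transcript per cell cannot be told apart in these bulk libraries.

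**Figure D2:**
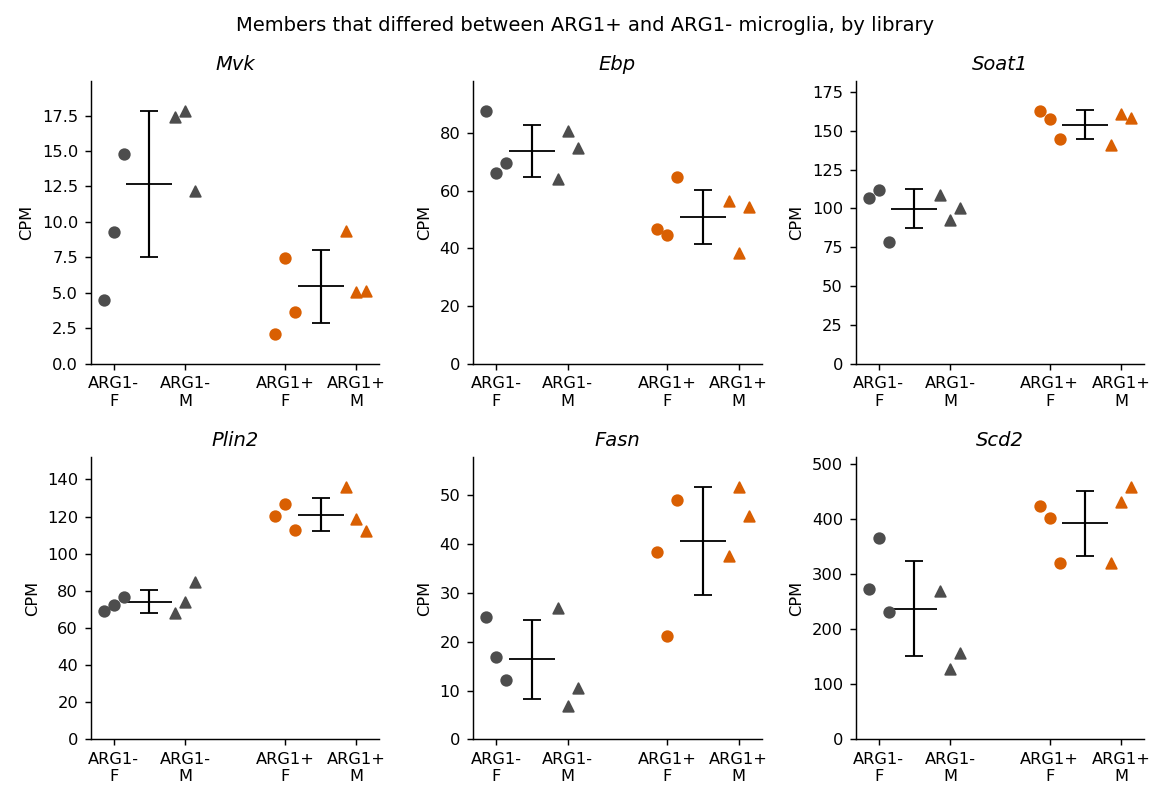
CPM of the 6 genes that differed at an adjusted p under 0.05, in each of the 12 libraries. Circles are females (F), triangles males (M), gray ARG1- and orange ARG1+, and the line and bars give the mean and SD of each population (n = 6). Plin2 and Soat1 separate the populations fully, whereas the other 4 genes overlap.

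Fatty acid synthesis held the other genes that rose. *Fasn* (chromosome 11, 120805846 to 120824547, minus strand) encodes fatty acid synthase, which builds palmitate. ARG1- libraries had 6.83 to 26.9 CPM (median 14.5) and ARG1+ libraries 21.2 to 51.7 CPM (median 42.0). All but 1 of the ARG1+ libraries lay above every ARG1- library, the exception being ARG1+ female 8 at 21.2 CPM. The means were 16.4 ± 8.13 and 40.6 ± 11.1 CPM (SD, n = 6), and the fitted log2 fold change was 1.30 with a standard error of 0.34 and an interval from 0.57 to 2.04 (adjusted p = 0.022). The call was lost without ARG1+ female 15 (adjusted p = 0.0521) or ARG1+ male 12 (0.0515), at log2 fold changes of 1.23 and 1.25. With the length and GC trend removed, *Fasn* was at 0.83 (adjusted p = 0.048), and with that trend centered at 1.07 (0.0322).

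*Scd2* (chromosome 19, 44293674 to 44306864, plus strand) encodes a desaturase that makes oleate-type fatty acids, the main such enzyme of the brain. It ran from 128 to 365 CPM in ARG1- libraries (median 250.5) and from 319 to 458 CPM in ARG1+ libraries (median 413). The populations overlapped through ARG1- female 2 at 365 CPM, and 4 ARG1+ libraries lay above all ARG1- libraries. Its means were 237 ± 86.3 and 392 ± 58.8 CPM (SD, n = 6), and its log2 fold change was 0.76 with a standard error of 0.21 and an interval from 0.30 to 1.23 (adjusted p = 0.03). The call was lost in 6 of the 12 fits that left out 1 library, with an adjusted p of 0.0506 to 0.0607 without ARG1- female 13, ARG1+ female 7, ARG1- male 6, ARG1- male 14, ARG1+ male 12 or ARG1+ male 16. With the length and GC trend removed it was at 0.43 (adjusted p = 0.0906), and with that trend centered at 0.69 (adjusted p = 0.0291). ARG1- male 6 and ARG1- male 14 were the lowest ARG1- libraries for *Scd2*, at 128 and 156 CPM. They were also the lowest for *Fasn*, at 6.83 and 10.55 CPM, and no fit left out both. For *Soat1* and *Plin2* other ARG1- libraries were the lowest.

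*Scd1*, the paralog of *Scd2* and the main desaturase of liver, was nearly absent and held 326 of the 143300 counts of both genes (0.227%). *Scd1* had 0 counts in 3 of the 6 ARG1- libraries and in 5 of the 6 ARG1+ libraries, and its interval was from -8.94 to 0.60. Its highest value was 6.96 CPM, in ARG1- male 6. Reads that match both paralogs could have been counted for either or for neither, since the handling of such reads is not given in the sources used here.

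The other 5 genes of fatty acid synthesis did not pass the test. *Acly*, which makes the cytosolic acetyl-CoA that both pathways use, was at 289.5 ± 64.9 CPM in ARG1- and 265 ± 35.3 CPM in ARG1+ microglia, with an interval from -0.45 to 0.19. *Fads1*, a desaturase of polyunsaturated fatty acids, was at 273 ± 54.2 and 255 ± 40.7 CPM, with an interval from -0.40 to 0.23. Per exon length they were at 54.9 ± 12.3 and 50.2 ± 6.69 RPKM (*Acly*) and at 56.7 ± 11.3 and 53.0 ± 8.46 RPKM (*Fads1*), beside 43.4 ± 15.8 and 71.8 ± 10.8 RPKM for *Scd2*. The mean of *Scd2* thus lay below those of *Acly* and *Fads1* in ARG1- microglia, by less than its SD, and above them in ARG1+ microglia. Changes of *Acly* or *Fads1* beyond 2-fold lie outside their intervals. With the length and GC trend removed, without centering, both were called lower, at -0.45 (adjusted p = 0.0307) and -0.40 (0.0306).

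*Acaca*, whose product makes malonyl-CoA for fatty acid synthase, was sparse, at 1.36 ± 1.47 and 4.34 ± 1.56 CPM. It lay above the ARG1- mean in all 6 ARG1+ libraries, yet its interval, from -0.04 to 3.73, included 0 (adjusted p = 0.182). *Elovl6*, which elongates palmitate, had 0.550 ± 0.979 and 1.37 ± 1.29 CPM, and *Fads2*, the partner of *Fads1*, had 5.06 ± 4.02 and 3.54 ± 1.62 CPM. Their intervals were wider still, from -1.51 to 4.52 and from -2.39 to 1.43.

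Of the 18 enzymes of sterol synthesis in both arms, 0 were called higher, beside 6.44% of all genes. By the test of edgeR 2 fell and 16 did not pass. Their median log2 fold change was -0.10, with 5 fitted above 0 and 13 below. The 2 that fell are 11.1% of the 18, a share near the 9.42% of all genes that fell. At an unadjusted p under 0.05 there were 0 higher and 4 lower, and DESeq2 called 0 higher and 2 lower. With the length and GC trend removed, which also lowers all genes, 5 were lower (*Acat2*, *Mvk*, *Fdps*, *Msmo1* and *Ebp*). The summed level of the 18 enzymes was 511 ± 51.8 CPM in ARG1- and 446 ± 27.0 CPM in ARG1+ microglia (SD, n = 6). The ranges, 431.5 to 570.8 and 409.6 to 473.4 CPM, overlapped.

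In the mevalonate arm all 7 genes had a fitted value below 0, with a median of -0.38, and 1 of them fell. *Mvk* (chromosome 5, 114444269 to 114460591, plus strand) encodes mevalonate kinase. It ran from 4.47 to 17.8 CPM in ARG1- libraries (median 13.5) and from 2.12 to 9.34 CPM in ARG1+ libraries (median 5.09). No ARG1+ library reached the ARG1- mean, but ARG1- female 1, at 4.47 CPM, lay below 4 of them. The means were 12.7 ± 5.14 and 5.45 ± 2.59 CPM (SD, n = 6), and the log2 fold change was -1.20 with a standard error of 0.36 and an interval from -1.98 to -0.41 (adjusted p = 0.041).

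The call for *Mvk* depended on single libraries. It was kept without ARG1- female 1, ARG1+ female 8 or ARG1+ male 11, and was lost without any one of the other 9, at adjusted p values from 0.052 to 0.105. It was also lost with no filter on low counts (adjusted p = 0.0697) and with a term for libraries 13 to 16 (0.054).

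*Hmgcs1*, which makes HMG-CoA, had the highest level per exon length of this arm, 11.8 ± 2.87 and 11.03 ± 1.84 RPKM, that is, CPM per kilobase of exon. In CPM it ran from 42.1 to 72.6 (median 49.4) in ARG1- libraries and from 42.9 to 65.3 (median 49.0) in ARG1+ libraries. The libraries overlapped almost fully, and the interval was from -0.46 to 0.27. *Fdps*, which makes farnesyl pyrophosphate, was at 23.8 ± 7.95 and 16.1 ± 2.94 CPM, a log2 difference of -0.57 (adjusted p = 0.124). Of its exon bases, 26.7% also belong to another annotated gene of the same strand.

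The remaining 4 genes of the arm had log2 fold changes of -0.41 for *Acat2*, which joins 2 acetyl-CoA, -0.38 for *Pmvk* and -0.10 for *Mvd*, the later steps of mevalonate use, and -0.18 for the isomerase *Idi1*. Their adjusted p values ranged from 0.209 to 0.868.

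In the sterol arm 1 of 11 genes fell, and 5 had fitted values above 0. *Ebp* (chromosome X, 8185329 to 8193512, minus strand) encodes the isomerase that moves a double bond in the sterol ring. ARG1- libraries had 63.9 to 87.5 CPM (median 72.2) and ARG1+ libraries 38.3 to 64.7 CPM (median 50.6). Of the ARG1+ libraries, 5 lay below every ARG1- library, and ARG1+ female 15, at 64.7 CPM, lay just above the lowest of them. The means were 73.8 ± 9.07 and 50.9 ± 9.45 CPM (SD, n = 6), and the fitted log2 fold change was -0.54 with a standard error of 0.14 and an interval from -0.84 to -0.23 (adjusted p = 0.0231).

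*Ebp* lost its call in 6 of the 12 fits that left out 1 library, at adjusted p values from 0.0513 to 0.0778, without ARG1+ female 7, ARG1+ female 8, ARG1- male 6, ARG1- male 14, ARG1+ male 12 or ARG1+ male 16. It was also lost with no filter on low counts (adjusted p = 0.0556). With the centered length and GC trend removed, *Ebp* was at -0.46 (adjusted p = 0.0425) and *Mvk* at -1.21 (0.0397), and without centering at -0.74 (0.0041) and -1.51 (0.0086).

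*Msmo1*, the methyl oxidase that acts some steps earlier, came nearest to the threshold, at 77.9 ± 12.97 and 59.3 ± 9.27 CPM, a log2 difference of -0.39 (adjusted p = 0.0831). Of its 6 ARG1+ libraries, 4 lay below all ARG1- libraries. *Nsdhl*, which works with it to remove methyl groups, was at -0.40 (adjusted p = 0.249). The first enzymes after farnesyl pyrophosphate were nearer to 0, with 0.16 for *Fdft1* (squalene synthase), 0.12 for *Sqle* (squalene epoxidase), -0.03 for *Lss*, which closes the ring, and -0.01 for *Cyp51*, which removes the first methyl group.

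The other enzymes of the arm were mixed, with 0.01 for the reductase *Tm7sf2*, -0.10 for *Sc5d* and 0.21 for *Dhcr7*, which makes cholesterol in the last step. *Hsd17b7*, low at 3.34 ± 2.99 and 6.25 ± 3.005 CPM, was at 1.14 with an interval from -0.57 to 2.86. Of the exon bases of *Fdft1*, 18.3% overlap *Ctsb* on the opposite strand, and 12.1% of those of *Tm7sf2* overlap *Vps51* on the same strand, so reads there could have been shared or dropped. Whether strand was used in counting is not given in the sources used here.

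**Figure D3:**
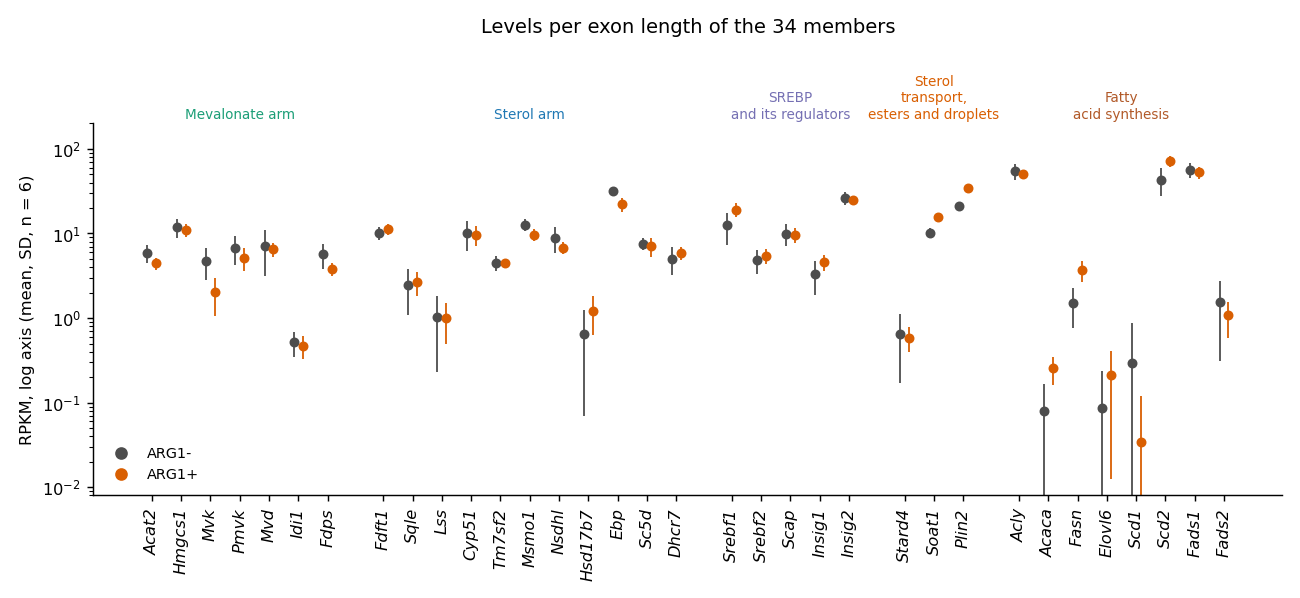
Level per exon length (RPKM, log axis) of each of the 34 genes in ARG1- (gray) and ARG1+ (orange) microglia, as mean and SD over 6 libraries, in pathway order. Bars that reach the lower edge extend to or below 0. Scd2, Fads1 and Acly are the highest, Ebp leads the sterol arm, and Idi1, Stard4, Acaca, Elovl6 and Scd1 are below 1 RPKM in both populations.

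Summed marker levels of other cell types lay lower in ARG1+ libraries for some types and higher for others. The 8 oligodendrocyte markers, genes of a cell type with very active sterol synthesis, summed to 258.8 to 378.7 CPM in ARG1- and 170.6 to 262.6 CPM in ARG1+ libraries. Most of that sum was *Cnp* at 194 and 133 CPM, whereas *Cldn11* was at or below 0.159 CPM in every library. Of the 6 of these markers that could be tested, 1 fell (16.7%, beside 9.42% of all genes) and 0 rose (beside 6.44%). The 7 astrocyte markers summed to 176.1 to 223.8 and 129.8 to 150.8 CPM, most of it *Slc1a3*, and the 7 neuron markers to at most 13.1 CPM in any library. The 5 oligodendrocyte precursor markers summed to at most 13.5 CPM, the 5 endothelial markers to 28 to 56.7 and 44.0 to 83.3 CPM, and the 6 border macrophage markers to 105.7 to 141 and 108.5 to 235 CPM. The part of other cells in the lower sterol enzymes was not tested.

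RNAs that keep introns moved as well. The 6 such genes listed summed to 1128 to 2059 CPM in ARG1- and 2891 to 4242 CPM in ARG1+ libraries, with 3 of 6 higher at an adjusted p under 0.05. The 8 cell cycle genes summed to 472 to 751 and 489 to 630 CPM, with 3 of them lower, and of the 9 immediate early genes, 8 could be tested and 2 were higher. The part of RNA quality and cell state in the differences above was not tested.

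None of the 5 genes for SREBP and its regulators passed the test of edgeR, with a median log2 fold change of 0.18, and 0 did so at an unadjusted p under 0.05 or by DESeq2. With the length and GC trend removed, without centering, *Scap* was called at -0.45 (adjusted p = 0.0395) and *Insig2* at -0.36 (0.0425). *Srebf1*, the SREBP gene tied to fatty acid synthesis, was at 70.2 ± 28.9 CPM in ARG1- and 108 ± 20.4 CPM in ARG1+ microglia. Of its ARG1+ libraries, 4 lay above all ARG1- libraries, and ARG1- male 14 was the lowest of all at 18.6 CPM. The log2 fold change was 0.63 with an interval from -0.05 to 1.31 (adjusted p = 0.208), and without ARG1- male 14 it was 0.42.

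*Srebf2*, the SREBP gene tied to sterol synthesis, was at 34.5 ± 10.9 and 39.1 ± 7.64 CPM, a log2 fold change of 0.18 (adjusted p = 0.645). *Scap*, the escort of SREBP, was at -0.06 (adjusted p = 0.875), and *Insig1*, an anchor that is itself an SREBP target, at 0.48 (0.305). *Insig2*, the other anchor, had the highest level per exon length of the 5, at 26.5 ± 4.54 and 24.8 ± 2.47 RPKM. It ran from 71.9 to 109.3 CPM (median 95.1) in ARG1- and from 76.6 to 97.9 CPM (median 82.3) in ARG1+ libraries. The ARG1+ range lay inside the ARG1- range, and the interval of -0.37 to 0.18 was among the narrowest of the 34.

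Sequence just upstream of the genes was read from the RefSeq promoter table (GRCm38.p6), which lists 27 of the 34 genes. In the 250 bases before the start site, the NF-Y box (CCAAT, either strand), a site SREBP is known to work with, was present in 21 of the 27 (77.8%) beside 37.5% of all genes in the table. The Sp1 box (GGGCGG, either strand) was also present in 21 (77.8%), beside 35.4% of all genes. A sterol regulatory element was found by the strict letters TCACNCCAC in 1 of the 27 (*Hmgcs1*) beside 1.22% of all genes, and the E-box CACGTG in 5 (18.5%) beside 6.86%. By window, 33.8% of all 32851 windows hold the NF-Y box and 32.7% the Sp1 box. These shares were not limited to genes that passed the filter on low counts, as the 27 did. They therefore cannot separate a trait of these pathways from one of expressed genes. A match is a run of letters and not evidence of binding, and the absence of one says nothing of factors that bind other letters.

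The windows of the genes that fell, of the genes that rose as far as the table lists them, and of *Hmgcs1* are shown 5′ to 3′ along the gene, ending at the base before the start site. Capitals mark the matches to these 4 motifs. Of the windows shown, those of *Soat1* and *Plin2* hold 1 match each and the others several. The windows shown do not stand for all synthesis genes, since those of *Acaca* and *Elovl6* hold no match.
Hmgcs1, chr13:119690101-119690350, plus strand: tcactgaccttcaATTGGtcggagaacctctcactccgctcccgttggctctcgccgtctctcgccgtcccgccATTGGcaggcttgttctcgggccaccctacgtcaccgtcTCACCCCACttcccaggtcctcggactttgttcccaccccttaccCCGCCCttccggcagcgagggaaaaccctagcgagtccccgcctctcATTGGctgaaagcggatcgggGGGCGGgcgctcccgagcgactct
Mvk, chr5:114444019-114444268, plus strand: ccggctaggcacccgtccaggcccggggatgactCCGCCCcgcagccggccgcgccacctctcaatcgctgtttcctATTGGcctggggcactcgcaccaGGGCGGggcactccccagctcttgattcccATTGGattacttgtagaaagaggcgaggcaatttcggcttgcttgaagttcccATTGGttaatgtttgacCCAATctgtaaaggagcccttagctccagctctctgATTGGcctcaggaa
Ebp, chrX:8193513-8193762, minus strand: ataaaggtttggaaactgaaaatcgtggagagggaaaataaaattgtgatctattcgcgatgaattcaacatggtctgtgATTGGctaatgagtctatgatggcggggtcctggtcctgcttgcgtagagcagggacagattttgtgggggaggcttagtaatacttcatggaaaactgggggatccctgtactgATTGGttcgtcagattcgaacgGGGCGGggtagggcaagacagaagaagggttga
Fasn, chr11:120824548-120824797, minus strand: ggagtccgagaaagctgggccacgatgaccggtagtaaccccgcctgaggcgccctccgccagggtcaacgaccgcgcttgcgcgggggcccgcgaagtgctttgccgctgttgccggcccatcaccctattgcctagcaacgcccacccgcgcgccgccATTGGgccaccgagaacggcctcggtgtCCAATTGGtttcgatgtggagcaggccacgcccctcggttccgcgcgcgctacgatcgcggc
Soat1, chr1:156474329-156474578, minus strand: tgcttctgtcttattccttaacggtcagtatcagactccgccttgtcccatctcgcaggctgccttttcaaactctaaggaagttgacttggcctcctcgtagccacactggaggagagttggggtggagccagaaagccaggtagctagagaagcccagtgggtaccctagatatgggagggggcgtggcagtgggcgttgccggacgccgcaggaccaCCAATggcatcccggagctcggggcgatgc
Plin2, chr4:86670060-86670309, minus strand: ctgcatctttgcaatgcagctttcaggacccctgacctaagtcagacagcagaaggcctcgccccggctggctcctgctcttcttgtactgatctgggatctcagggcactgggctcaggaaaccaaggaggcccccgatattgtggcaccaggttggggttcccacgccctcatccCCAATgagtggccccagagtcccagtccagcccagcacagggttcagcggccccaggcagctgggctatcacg
*Mvk*, which fell, holds 5 NF-Y boxes and 2 Sp1 boxes, and *Ebp* holds 2 and 1. *Fasn*, which rose, holds 3 NF-Y boxes, of which those starting 62 and 59 bases before the start overlap. *Hmgcs1* holds the sterol regulatory element at 137 bases, 3 NF-Y boxes and 2 Sp1 boxes, and its level did not pass the test. Windows with several matches were thus found among genes that fell, rose and did not pass.

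The comparison was repeated within each sex. Among females 2 of the 34 genes passed (5.88%, beside 6.76% of all genes) and among males 3 (8.82%, beside 5.13% of all genes). *Plin2* had log2 fold changes of 0.72 in females (adjusted p = 0.0125) and 0.69 in males (0.0219), and *Soat1* of 0.64 (0.0284) and 0.61 (0.0399). *Scd2* passed in males, at 1.13 (adjusted p = 0.0399), and was at 0.40 in females (0.431).

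The difference of the ARG1 effect between the sexes was tested directly. It reached an adjusted p under 0.05 for 0 of the 34 genes and for 0% of all genes tested, where 1576 genes had an unadjusted p under 0.05 and the smallest adjusted p was 0.146. The DESeq2 interaction term called 322 genes and 0 of the 34. Among the 34, *Cyp51* had the smallest adjusted p (0.491), with log2 fold changes of -0.53 in females and 0.51 in males, and for *Scd2* the difference was 0.73 with a standard error of 0.38 (adjusted p = 0.588). The fitted directions were opposite in the sexes for 9 genes and the same for 25 (73.5%, beside 67.4% of all genes tested).

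Males and females were also compared within each population. No gene of the 34 differed in ARG1- microglia, where 0.0946% of all genes did, or in ARG1+ microglia, where 0.0355% did. At an unadjusted p under 0.05 there were 2 and 0 of the 34.

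**Figure D4:**
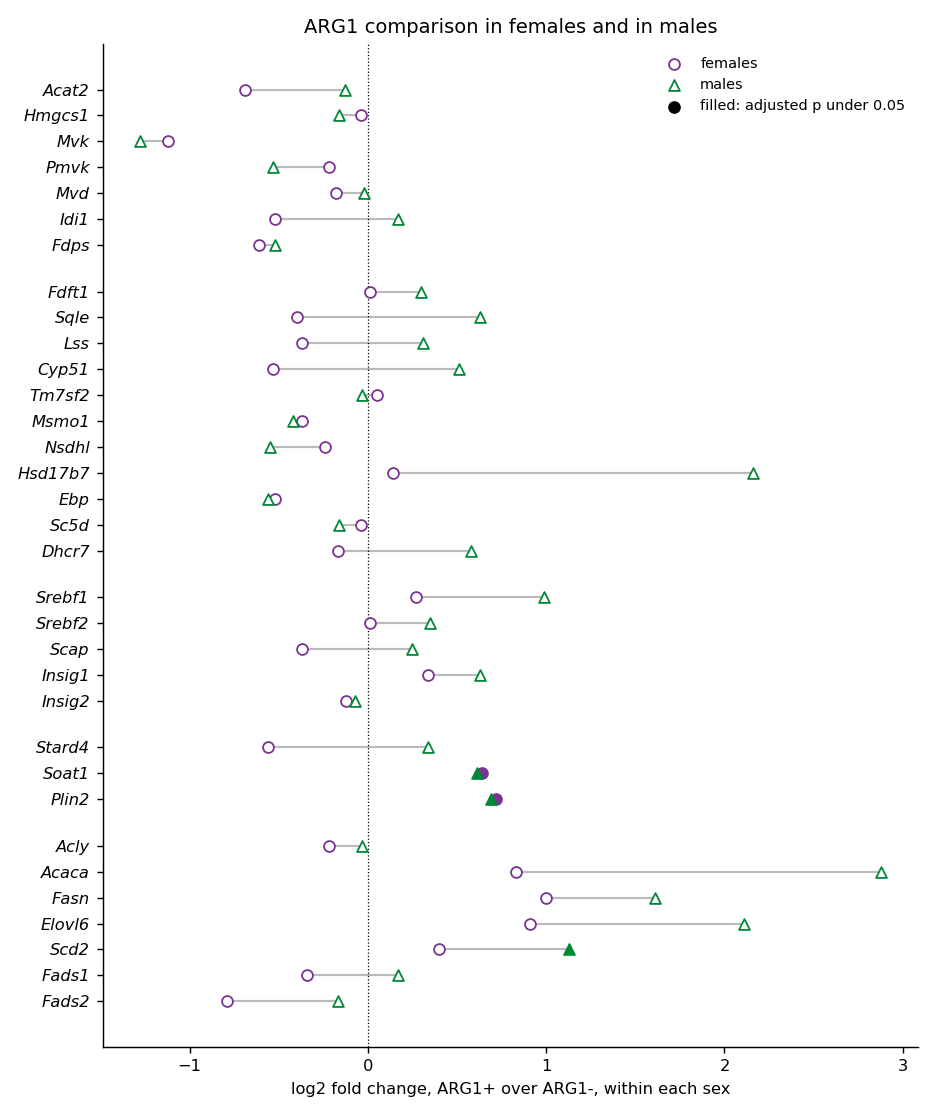
Log2 fold change, ARG1+ over ARG1-, of 33 of the genes in females (circles) and in males (triangles), with a gray line joining both values. Filled points passed an adjusted p of 0.05 in that sex. The values of Plin2 and Soat1 nearly coincide, and long lines belong to sparse genes such as Acaca and Hsd17b7; Scd1 (-7.46 and -2.76) is left out because of its zeros.

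ARG1- libraries were more unequal than ARG1+ libraries. The SD of log2(CPM + 1) around the group means was larger in ARG1- microglia for 28 of the 34 genes (82.4%), beside 68.9% of all genes tested. Its median over the 34 genes was 0.496 in ARG1- and 0.283 in ARG1+ microglia, beside 0.369 and 0.281 over all genes. For *Dhcr7* it was 0.551 and 0.103, for *Scap* 0.486 and 0.104, and for *Srebf1* 0.870 and 0.303. *Plin2* was even in both, at 0.124 and 0.117, and *Ebp* went the other way, at 0.192 and 0.294. These values describe the libraries and were not tested.

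Genes of the same pathways outside the 34 were read from lists chosen with earlier results of these data known. Among 8 genes of LXR and its targets, 3 rose (37.5%, beside 6.44% of all genes) and 1 fell (12.5%, beside 9.42%). Their median log2 fold change was 0.60. *Abca1*, which exports cholesterol to lipoproteins, ran from 209.7 to 319 CPM in ARG1- libraries (median 249) and from 373 to 669.9 CPM in ARG1+ libraries (median 489.9). The populations did not overlap, and the fitted level was 2.003-fold higher, with a log2 interval from 0.66 to 1.35 (adjusted p = 0.00179), called in all 12 fits that left out 1 library.

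*Mylip*, whose product degrades lipoprotein receptors, was at 161 ± 29.1 and 226 ± 15.6 CPM (SD, n = 6), a log2 fold change of 0.49 (adjusted p = 0.0145), and was also called in all 12 fits. *Abcg1*, a second exporter, was at 49.4 ± 18.8 and 80.8 ± 5.45 CPM with no overlap, a log2 fold change of 0.73 (adjusted p = 0.048). Its call was lost in 11 of 12 fits, all but that without ARG1- male 5, at adjusted p values from 0.0529 to 0.0912. As for *Fasn* and *Scd2*, ARG1- male 6 and ARG1- male 14 were the lowest ARG1- libraries, at 29.1 and 24.4 CPM, and no fit left out both. *Rxrb*, a partner receptor of LXR, fell from 114 ± 18.3 to 79.5 ± 19.6 CPM, a log2 fold change of -0.54 (adjusted p = 0.0313). It lost its call in 6 of 12 fits, without ARG1- female 1, ARG1- female 2, ARG1+ female 7, ARG1+ female 15, ARG1- male 6 or ARG1+ male 16, at adjusted p values from 0.0588 to 0.0817. It was also lost with no filter on low counts (adjusted p = 0.0574) and without the sex term (0.0522).

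Of 6 genes of lysosomal sterol release, 2 rose (33.3%, beside 6.44% of all genes) and 0 fell by edgeR, with a median log2 fold change of -0.07. At an unadjusted p under 0.05 there were 2 higher and 3 lower, DESeq2 called 2 higher and 1 lower, and the summed level was 1034 ± 71.6 CPM in ARG1- and 966 ± 55.9 CPM in ARG1+ microglia. *Lipa*, the lysosomal acid lipase that frees cholesterol from esters, was at 138 ± 19.0 and 191 ± 25.7 CPM (SD, n = 6), a log2 fold change of 0.47 (adjusted p = 0.0191). *Osbpl8*, a lipid carrier of the endoplasmic reticulum, was at 31.7 ± 3.02 and 47.9 ± 11.1 CPM, a log2 fold change of 0.57 (adjusted p = 0.0249), and lost its call in 5 of 12 fits (0.0506 to 0.0634), without ARG1- female 2, ARG1- female 13, ARG1+ female 7, ARG1+ female 15 or ARG1+ male 16. Both belong to the bin of longest exon length. With the centered length and GC trend removed they were at 0.32 (adjusted p = 0.147) and 0.35 (0.0754), and *Abcg1* was at 0.61 (0.0712), whereas *Abca1* was at 0.76 (0.00115) and *Mylip* at 0.53 (0.00695). With the trend removed without centering, *Lipa* was at 0.06 (adjusted p = 0.817), *Osbpl8* at 0.07 (0.733), *Abcg1* at 0.36 (0.171) and *Mylip* at 0.26 (0.103), all without a call, and *Abca1* at 0.50 (0.0076). That fit, which moved the median of all genes to -0.26, called 0 of the lysosomal genes higher and 4 lower. Of the LXR genes it called 1 higher and 2 lower.

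**Figure D5:**
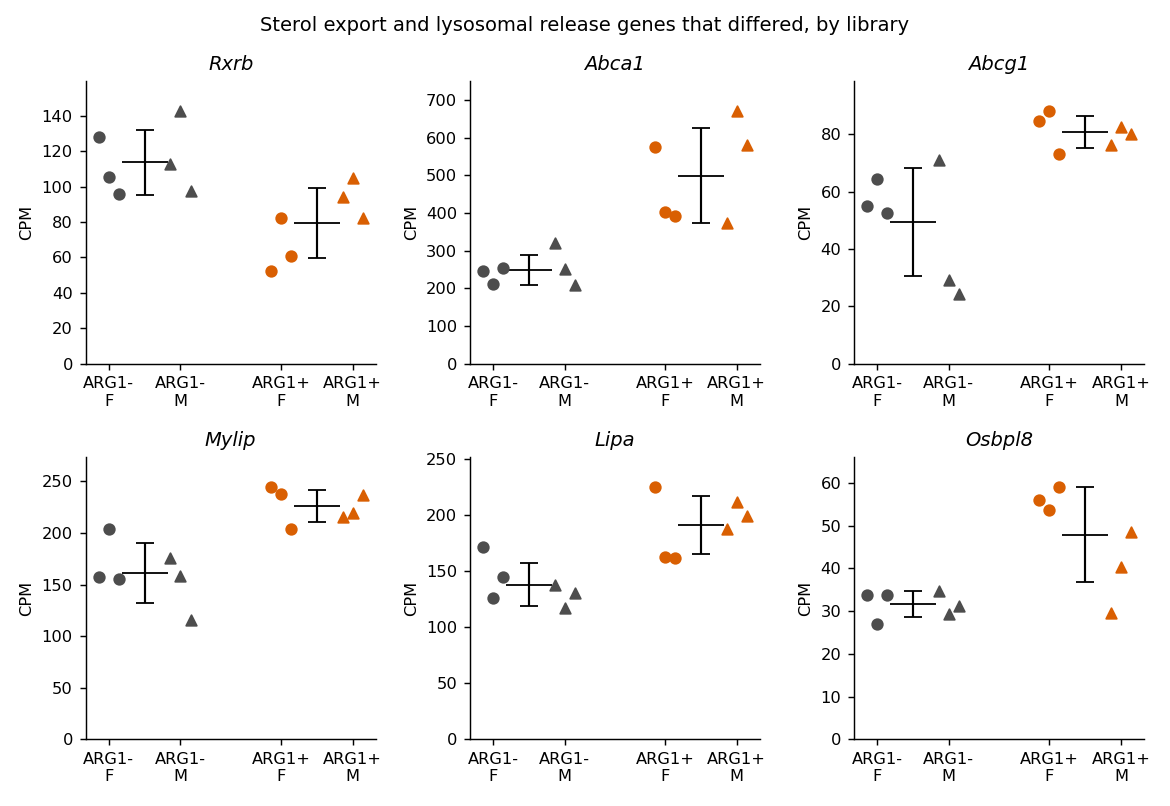
CPM of the 6 called genes among LXR and its targets and lysosomal sterol release, in each of the 12 libraries. Circles are females (F), triangles males (M), gray ARG1- and orange ARG1+, with mean and SD of each population (n = 6). Abca1 and Abcg1 separate the populations fully, and 2 of the ARG1- libraries of Abcg1 lie far below the other 4.

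The remaining lists held little that passed. Genes that fell were 6.7% of the fatty acid list and 7.7% of the triglyceride and droplet list, beside 9.42% of all genes. Genes that rose were 0% of both lists, beside 6.44% of all genes. Of 15 further genes of fatty acid supply, elongation and activation tested, 0 rose and 1 fell: *Mcat*, the malonyl transferase of the mitochondrial pathway, at 59.0 ± 8.15 and 40.6 ± 5.82 CPM without overlap, a log2 fold change of -0.54 (adjusted p = 0.016). Its call was lost without ARG1+ female 7 (adjusted p = 0.056) or ARG1+ male 16 (0.0578). Of 13 further genes of triglyceride and droplet metabolism, 0 rose and 1 fell: *Bscl2*, encoding the droplet protein seipin, at 122 ± 21.9 and 89.8 ± 8.59 CPM, a log2 fold change of -0.45 (adjusted p = 0.0329). *Bscl2* kept its call in 3 of 12 fits, those without ARG1- female 1, ARG1- male 5 or ARG1+ male 11, and reached adjusted p values from 0.0501 to 0.0944 in the other 9. It was also lost with no filter on low counts (adjusted p = 0.0732). At an unadjusted p under 0.05, edgeR had 0 higher genes in both of these lists, with 4 and 2 lower, and DESeq2 called 0 higher, with 1 and 2 lower. Of the 8 further genes of SREBP processing, 0 passed the edgeR test, with 2 higher at an unadjusted p under 0.05 and 1 called higher by DESeq2, and the median log2 fold change was 0.04. Of the 5 further genes of sterol and isoprenoid synthesis, 0 passed, also at an unadjusted p and by DESeq2, and the median was -0.16. With the length and GC trend removed, without centering, 3 and 2 genes of these lists were called lower. So were 5 genes of the fatty acid list and 3 of the triglyceride and droplet list, with 0 higher in any of these lists.

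For the genes that did not pass, the width of the interval sets what can be said. The 95% interval of the log2 fold change reached less than 1 to each side of the estimate for 27 of the 34 genes (median reach 0.52), and for 19 genes the whole interval lay between -1 and 1. The 6 genes under 6 CPM in both populations (*Idi1*, *Stard4*, *Acaca*, *Elovl6*, *Scd1* and *Fads2*) could have differed by 2-fold or more without being called at this depth and spread. So could *Fdps*, *Pmvk*, *Lss*, *Hsd17b7*, *Srebf1* and *Insig1*, which were not called and whose intervals also reach beyond 2-fold.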

How the data were processed

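RNA of sorted microglia was sequenced in 12 libraries. According to the study's methods, cDNA was made with SMART-Seq v4, libraries with Nextera XT, and single-end reads were run on an Illumina sequencer. The authors aligned the reads with STAR 2.6.1d to GRCm38 (Ensembl) and assigned them to genes with featureCounts 1.5.1. The values they deposited are these raw counts, 1 column per library, with no normalization. Strand and multimapping settings are not given in the sources used here.

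The members and lists were chosen with earlier results of these data known. Symbols, positions and exon lengths came from GENCODE M21, which matched 55227 of 55487 identifiers, and GC content from its transcripts. Genes were kept by filterByExpr on the 4 groups, normalized by TMM and tested in R 4.3.3 with edgeR 4.0.16 (glmQLFit, glmQLFTest) on sex and ARG1 status over all 12 libraries. Sex contrasts and the interaction used the 4 group means. P values were adjusted by Benjamini–Hochberg over all 16908 genes, with a limit of 0.05. The standard error of a log2 fold change is its size over the square root of F. CPM used TMM totals and RPKM the summed exon length. The test was run on simulated counts beforehand. Replicate pairs differed by 40.7 to 125 times the chi-square degrees of freedom, so each library counted as 1 replicate.

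All 34 members were named, with values by library for those at an adjusted p under 0.05 and for the highest gene per exon length of each group. Of the other lists, genes at an adjusted p under 0.05 were named. The marker lists were set by cell type. The few single markers named from them were picked by abundance after their values were seen. Alternatives were other size factors, other filters, no sex term, a term for libraries 13 to 16, thinned counts, length and GC trends removed (mgcv 1.9.3), DESeq2 1.42.0, and each library left out. Centering the trend was chosen after seeing the data.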

Additional observations from a re-analysis of the deposited data

Results flagged for a closer look

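In each population the highest and lowest of the 6 libraries were set against the other 5 for every member and for the total counts, by the gap to the nearest library over the whole range. Of 70 such groups, 7 had a library far from the others, where chance gives about 1 in 20, or 3.5.

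*Mvd* was at 27.1 CPM in ARG1- female 1 and at 6.97 to 13.7 CPM in the other 5 ARG1- libraries. Without that library the log2 fold change of *Mvd* was 0.27 in place of -0.10, and it was not called either way. *Tm7sf2* was at 15.2 CPM in ARG1+ male 16 and at 20.1 to 21.8 CPM in the other 5. The remaining 5 flags were in sparse genes. *Stard4* was at 1.21 CPM in ARG1+ female 7 and at 3.36 to 4.07 CPM in the other ARG1+ libraries. *Elovl6* was at 2.50 CPM in ARG1- female 2, with the others at 0 to 0.563, and at 3.81 CPM in ARG1+ female 7, with the others at 0.136 to 1.48. *Scd1* was at 6.96 CPM in ARG1- male 6, with the others at 0 to 1.72, and at 1.01 CPM in ARG1+ male 12, with all others at 0. None of these 5 genes was called in the ARG1 comparison, and the cause of the single high or low values was not tested.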

How the results depend on the processing

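No paired analysis was possible because the labels give all 12 libraries different numbers and do not tie an ARG1+ library to the ARG1- library of a litter. Of all genes tested, 2682 differed; 4074 did with the length and GC trend removed, 4105 with the DESeq2 Wald test, and 1753 to 2669 when 1 library was left out, the lowest without ARG1+ male 12. Among the 34 members, 4 were higher; 2 were with the trend removed (*Plin2* and *Fasn*) and 2 to 4 when 1 library was left out, the lowest without ARG1+ male 12. Of the members, 2 were lower; 9 were with the trend removed, 1 with a term for libraries 13 to 16, 0 with no filter, and 0 to 2 when 1 library was left out. The count was 0 without ARG1+ female 7, ARG1- male 6, ARG1- male 14, ARG1+ male 12 or ARG1+ male 16. Removing the trend moved the members' median to -0.38 and that of all genes to -0.26, and with the trend centered they were -0.10 and 0.02, with 4 members higher and 2 lower. The interaction called 0 genes, 322 with the DESeq2 term and 0 to 10 when 1 library was left out (3 without ARG1- female 13, 10 without ARG1- male 5), and 0 members in each. No called member turned its direction under any of the alternatives.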
